A study of Mus musculus with 2 samples.

Results

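Albumin and 9 other plasma carrier proteins were examined by their transcripts in cultured mouse hepatocytes with and without overexpressed HuR. The 10 genes were chosen by symbol in GENCODE mouse release M21, out of 20505 genes listed in both deposited tables. They are Alb, Ttr, Tf, Hpx, Ahsg, Rbp4, Gc, Itih1, Itih3 and Itih4. Of these symbols 9 stand in that release, and transferrin stands there as Trf, with Tf as its synonym in RefSeq, so it is called Trf here. All 10 had a value in both libraries, and all 10 passed the minimum of 1 FPKM in either library. FPKM is the number of reads scaled by transcript length and by the library's total.

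Primary hepatocytes came from C57BL/6 mice, were freed from the liver with type II collagenase and were kept in DMEM with 5% FBS. Both groups were infected overnight with an adenovirus, which carried β-galactosidase (β-Gal, the control) in one group and HuR in the other. HuR is an RNA-binding protein encoded by Elavl1 that binds AU-rich and U-rich stretches of mRNA. Each group was 1 library, so no value below has a replicate, no test between conditions was possible, and no p-value is given. Neither the number of mice behind a library nor the dose of virus is given in the sources used here.

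Hepatocytes secrete most plasma proteins, and the carriers among them bind small molecules that dissolve poorly or are toxic when free. Albumin carries fatty acids, bilirubin and hormones, and sets much of the colloid pressure of plasma. Transthyretin (Ttr) and retinol-binding protein (Rbp4) carry thyroid hormone and retinol, transferrin carries iron, hemopexin (Hpx) carries haem, and the vitamin D-binding protein (Gc) carries vitamin D. The inter-alpha-trypsin inhibitor heavy chains are secreted proteins, several of which are linked to a light chain and passed on to hyaluronan in the extracellular matrix. In inflammation the liver makes less of some carriers and more of others.

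The FPKM steps implied a total of 18357016 reads in the control library and 17671387 in the other. Elavl1, the overexpressed gene, stood at 9.67 FPKM with β-Gal and 4480 FPKM with HuR. Independent hepatocyte markers were present in both libraries, with summed levels of 2278 and 2395 FPKM over 8 genes. Most of that sum was Apoa1 (1675 and 1896 FPKM). Of the 8 markers, 4 stood higher and 4 lower with HuR, with a median log2 fold change of -0.14. Of those 8, 0 were at least 2-fold higher and 1 was at least 2-fold lower in the HuR library, where 5.35% of all compared genes were higher and 8.31% lower by that much. Markers of other liver cells are read against the same shares. Kupffer cell markers (4 of 7 compared at least 2-fold higher) summed to 60.3 and 137 FPKM over 10 genes, and stellate cell markers (5 of 5 lower) to 12.9 and 1.69 FPKM over 8. Those 5 were all under 1 FPKM with HuR, so they passed the minimum through the β-Gal library alone. Their count is therefore partly set by that minimum. The cholangiocyte markers past 2-fold were likewise each under 1 FPKM in 1 library. Endothelial markers (2 of 5 higher) summed to 20.4 and 39.2 FPKM over 7 genes, and cholangiocyte markers (1 of 6 higher, 2 lower) to 70.1 and 84.2 FPKM over 7. Most of the cholangiocyte sum was Spp1 (50.8 and 71.9 FPKM). Of the 6 compared cholangiocyte markers, 2 had a log2 fold change above 0 and 4 below, with a median of -0.51. Of these markers, Lrat, Pdgfrb and Clec4g were at 0 in the HuR library. With β-Gal they stood at only 0.010, 0.070 and 0.047 FPKM (1, 7 and 1 reads), and no listed gene was at 0 there. In bulk samples fewer cells of a type and less RNA per cell cannot be told apart, and the part of these markers in the carrier values was not tested.

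The carrier genes as a group stood close to their control values. None of the 10 reached a 2-fold difference on the log2(FPKM + 1) scale, against 13.7% of the 12905 compared genes, and none reached 1.5-fold, against 35.5%. At 1.5-fold that count depends on the scale. Ttr passed, alone among the carriers, with the median of all compared genes set to 0 (log2 0.69, with 32.8% of genes past 1.5-fold) and with the GC and length trend also removed (0.74, with 28.3%). The background was lower among abundant genes. Of the 1055 genes with at least 100 FPKM in both libraries, to which 9 of the 10 carriers belong, 2.27% differed by 2-fold and 12.5% by 1.5-fold. A count of 0 in 10 is therefore near the share of abundant genes in general at 2-fold. Summed over the 10 genes, the level was 35528 FPKM with β-Gal and 38621 FPKM with HuR. This was 4.84% and 5.00% of all summed FPKM. In recovered reads the share was 3.45% (95% counting interval 3.44 to 3.46%) and 3.74% (3.73 to 3.75%).

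**Figure D1:**
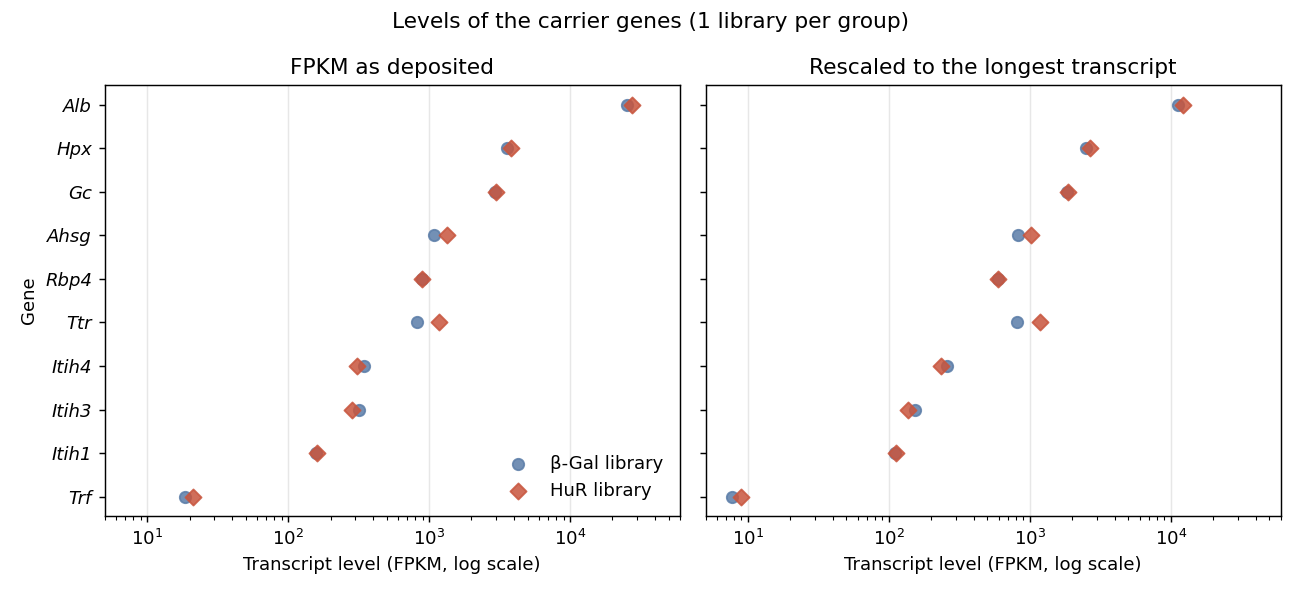
Transcript level of each carrier gene (FPKM, log scale) with β-Gal (circles) and with HuR (diamonds), as deposited on the left and rescaled from the mean to the longest annotated transcript on the right. Alb lies highest at 25353 and 27642 FPKM and Trf lowest at 18.5 and 21.3 FPKM, and only Ttr and Ahsg show points that stand clearly apart.

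By deposited FPKM, albumin was the most abundant transcript of both libraries. Alb (ENSMUSG00000029368, chromosome 5, 90460897 to 90476602, plus strand, GRCm38) stood at 25353 FPKM with β-Gal and 27642 FPKM with HuR. The HuR value was 1.09 times the β-Gal value (95% counting interval 1.09 to 1.09), or 2.28% and 2.48% of reads. Intervals here and below are exact Clopper-Pearson intervals on recovered reads and cover counting error only. With 418405 and 439132 reads the interval of Alb is narrow, and it says nothing of how much the transcript varies from culture to culture.

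Apoe and Fth1 were the first and the third of the non-member genes closest to Alb in level over both libraries, by Euclidean distance on the log2(FPKM + 1) scale. Apoe, an apolipoprotein, stood at 13095 and 19841 FPKM. Fth1, the ferritin heavy chain, stood at 8993 and 12306 FPKM. The difference between libraries was wider in both than in Alb, where it was 1.09-fold, with 1.52-fold for Apoe and 1.37-fold for Fth1.

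The relatives of albumin lay far below it. Alpha-fetoprotein (Afp), the fetal counterpart of albumin, begins 14135 bases beyond the end of Alb and stood at 28.7 and 37.7 FPKM (1.32-fold, 1.17 to 1.49). Afamin (Afm), a vitamin E-binding member of the family, stood at 21.7 and 23.5 FPKM (1.09-fold, 0.990 to 1.19). Gc, also of the albumin family (ENSMUSG00000035540, chromosome 5, 89417522 to 89457898, minus strand), stood at 2954 and 2996 FPKM. Its fold was 1.01 (1.003 to 1.03), so both libraries held nearly the same share of it.

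The proximal promoters of Alb, Gc and Hpx are shown because they are those of 3 abundant carriers whose folds lay close to 1 (1.09, 1.01 and 1.06) and they hold the letters CCAAT, which the factor NF-Y binds. Sequences are from RefSeq (GRCm38.p6), 250 bases before to 50 after the annotated start, 5′ to 3′ in the direction of the gene. Capitals mark matches to CCAAT on either strand. Alb lies at chr5:90460620-90460919 on the plus strand, Gc at chr5:89457849-89458148 on the minus strand and Hpx at chr7:105600067-105600366 on the minus strand.
Alb: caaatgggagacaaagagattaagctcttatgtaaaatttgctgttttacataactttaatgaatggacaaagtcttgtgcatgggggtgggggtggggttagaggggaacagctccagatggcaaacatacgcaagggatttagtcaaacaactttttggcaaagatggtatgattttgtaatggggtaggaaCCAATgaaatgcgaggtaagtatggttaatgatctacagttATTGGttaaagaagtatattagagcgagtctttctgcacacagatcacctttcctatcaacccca
Gc: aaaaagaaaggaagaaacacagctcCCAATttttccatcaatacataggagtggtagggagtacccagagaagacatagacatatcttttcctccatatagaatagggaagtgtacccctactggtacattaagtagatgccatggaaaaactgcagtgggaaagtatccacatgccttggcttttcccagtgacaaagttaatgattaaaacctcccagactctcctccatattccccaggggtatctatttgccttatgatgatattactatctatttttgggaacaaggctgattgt
Hpx: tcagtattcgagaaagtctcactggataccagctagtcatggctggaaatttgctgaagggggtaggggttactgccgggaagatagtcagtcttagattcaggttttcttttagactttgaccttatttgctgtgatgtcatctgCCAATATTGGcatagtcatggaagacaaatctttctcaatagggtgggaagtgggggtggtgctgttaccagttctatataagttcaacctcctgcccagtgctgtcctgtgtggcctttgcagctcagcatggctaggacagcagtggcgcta
Promoter entries were found for 8 of the 10 genes, with a second entry for Rbp4. CCAAT was found in 5 of these 8 (Alb, Hpx, Ahsg, Rbp4 and Gc), against 37.4% of 32851 promoters of the same length. In Ahsg the only match begins after the start, at base 23, on the opposite strand. Rbp4 was counted if either of its entries held the letters. TATAAA, the TATA box letters, was found in 3 (Rbp4, Itih3 and Itih4), against 13.6%. It begins 28 bases before the start on the gene's strand in Rbp4, and 3 bases before it on the opposite strand in Itih4. In Itih3 it begins after the start, at base 4. Neither CAAAGTCCA, an HNF4 site, nor TTGNNCAA, a C/EBP palindrome, was found in any of the 8, against 0.475% and 6.40% of promoters, each searched on both strands. All distances here are counted from the RefSeq start. For Alb and Hpx it differs from the start in the GENCODE coordinates given for the gene, and for Gc it is the same. Alb holds CCAAT beginning 56 bases before the start on the gene's strand and again 15 bases before it on the opposite strand. In Hpx a pair of matches lies side by side on opposite strands, beginning 104 and 99 bases before the start, and in Gc 1 match begins 225 bases before it. The matches do not overlap one another in these 3 windows, and a match describes letters only.

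Transthyretin was the carrier with the highest fold, and its partner in plasma did not share it. Transthyretin binds retinol-binding protein and so keeps that small protein from being lost through the kidney. Ttr (ENSMUSG00000061808, chromosome 18, 20665280 to 20674321, plus strand) stood at 817 FPKM with β-Gal and 1177 FPKM with HuR. This was 1.44-fold higher (1.41 to 1.47), and it moved the gene from rank 113 to rank 83 by level. Among the 1055 abundant genes, 90.5% had a lower log2 fold change than Ttr. Rbp4 (ENSMUSG00000024990, chromosome 19, 38116629 to 38125281, minus strand) stood at 898 and 889.6 FPKM, with a fold of 0.991 (0.966 to 1.02).

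The transcript ratio of Ttr to Rbp4 was therefore 0.910 with β-Gal and 1.32 with HuR. The fold of Ttr was 1.45 times that of Rbp4 (large-sample counting interval 1.41 to 1.5004). Rbp4 had the highest GC content of the 10 genes, 58.7% as the mean over its transcripts, while Ttr had 46.5%. With the trend in GC content and length removed and the median of all genes set to 0, the log2 values were 0.74 for Ttr and -0.31 for Rbp4, farther apart than as deposited (0.53 and -0.013).

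Fetuin-A was next in order. Fetuin-A (Ahsg, ENSMUSG00000022868, chromosome 16, 22891277 to 22899449, plus strand) binds calcium phosphate in plasma and keeps it from precipitating. It stood at 1083 and 1337 FPKM, 1.23-fold higher (1.21 to 1.26). Its neighbour and relative fetuin-B (Fetub), a plasma inhibitor of a protease of the egg coat, stood at 126 and 148 FPKM (1.18-fold, 1.12 to 1.24). The folds of the pair differed by a factor of 1.05 (0.994 to 1.10), an interval that includes 1.

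**Figure D2:**
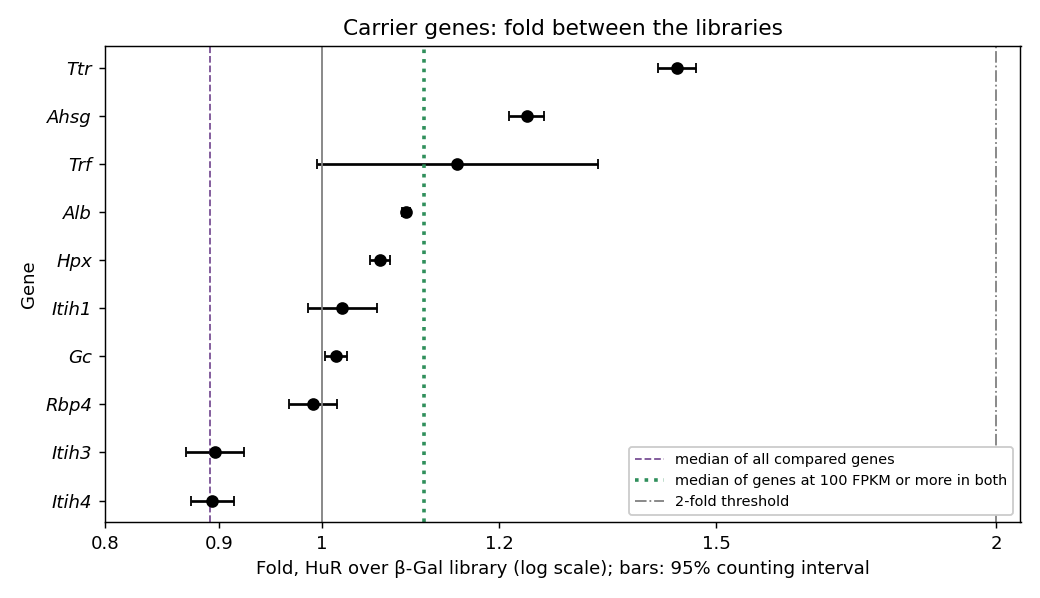
Fold of each carrier gene, HuR over β-Gal library (log scale), with 95% counting intervals as bars, beside the medians of all compared genes (dashed) and of genes with at least 100 FPKM in both libraries (dotted). Ttr lies farthest to the right at 1.44, still short of the 2-fold line, and Itih3 and Itih4 lie on the dashed line at 0.896 and 0.894.

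Transferrin, normally among the major secreted products of the liver, was listed at a low level. Trf (ENSMUSG00000032554, chromosome 9, 103204001 to 103230444, minus strand) stood at 18.5 FPKM with β-Gal and 21.3 FPKM with HuR, ranks 5317 and 4532. Its fold was 1.15 with an interval of 0.995 to 1.33, from 366 and 405 reads. The FPKM of Alb was 1368 and 1298 times that of Trf in the same libraries. GENCODE M21 annotates a second protein-coding gene, Gm20425, on the same strand over Trf. It shares 2108 of the 3320 exonic bases of Trf (63.5%) and leaves 1212 that belong to Trf alone. Of 12678 compared genes searched, 0.741% shared at least 50% of their exonic bases with a same-strand gene. HTSeq, which the submitters' processing notes name, by default assigns a read that overlaps exons of more than one gene to none of them. The setting used is not given in the sources used here, Gm20425 is not analysed here, and the part of this overlap in the Trf level was not tested.

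Genes of iron handling around transferrin did not share one direction. The transferrin receptors stood at 35.5 and 21.3 FPKM for Tfrc, which takes up iron-loaded transferrin (1.66-fold lower, 1.51 to 1.83), and at 137 and 148 FPKM for Tfr2, which senses it in hepatocytes (1.08-fold, 1.04 to 1.13). Ceruloplasmin (Cp), the copper ferroxidase of plasma, stood at 722 and 409 FPKM (1.77-fold lower, 1.73 to 1.801). The iron exporter ferroportin (Slc40a1) stood at 51.5 and 26.9 FPKM (1.92-fold lower, 1.75 to 2.10).

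Hemopexin takes free haem to the liver, where haem oxygenase breaks it down. Hpx (ENSMUSG00000030895, chromosome 7, 105591613 to 105600137, minus strand) stood at 3582 and 3803 FPKM, the second highest level among the carriers, with a fold of 1.06 (1.05 to 1.07). Haptoglobin (Hp), which binds free hemoglobin, stood at 1982 and 1834 FPKM, a fold of 0.926 (0.912 to 0.940). Haem oxygenase 1 (Hmox1) was past the 2-fold threshold, at 91.0 and 196 FPKM (2.15-fold higher, 2.04 to 2.27). The transcript ratio of Hpx to Hp was 1.81 with β-Gal and 2.07 with HuR.

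The inter-alpha-trypsin inhibitor heavy chains were split between one gene near its control value and those slightly below it. Itih1 (ENSMUSG00000006529, chromosome 14, 30929180 to 30943289, minus strand) stood at 157 and 161 FPKM, a fold of 1.02 (0.986 to 1.06). Itih3 (ENSMUSG00000006522, chromosome 14, 30908572 to 30923760, minus strand) stood at 318 and 285 FPKM, a fold of 0.896 (0.870 to 0.924). Itih4 (ENSMUSG00000021922, chromosome 14, 30886476 to 30902353, plus strand), a relative that is not bound to the light chain, stood at 347 and 311 FPKM, a fold of 0.894 (0.874 to 0.914). These 3 genes are neighbours, with 5420 bases between Itih1 and Itih3 and 6219 bases between Itih3 and Itih4. The transcript ratio of Itih3 to Itih1 was 2.02 with β-Gal and 1.78 with HuR. The folds of Itih4 and Itih3 differed by a factor of 0.997 (0.961 to 1.03).

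The remaining parts of the inhibitor lie on other chromosomes. Itih2, the heavy chain that joins Itih1 and the light chain in inter-alpha-inhibitor, stood at 226 and 202 FPKM, a fold of 0.893 (0.863 to 0.925). Itih5 was low, at 1.77 and 1.40 FPKM (0.791, 0.653 to 0.957). Ambp, which encodes the light chain bikunin together with alpha-1-microglobulin, lay above each heavy chain measured here in level, at 3004 and 3853 FPKM (1.28-fold, 1.27 to 1.30). Its transcript ratio to Itih2 was 13.3 with β-Gal and 19.1 with HuR, so the folds differed by a factor of 1.44 (1.38 to 1.49). Against Itih3 that factor was 1.43 (1.39 to 1.48) and against Itih1 1.26 (1.21 to 1.30). Tnfaip6, which transfers heavy chains to hyaluronan, and the hyaluronan synthase Has3 were under 1 FPKM in both libraries, and Itih6, Has1 and Has2 are not analysed here.

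**Figure D3:**
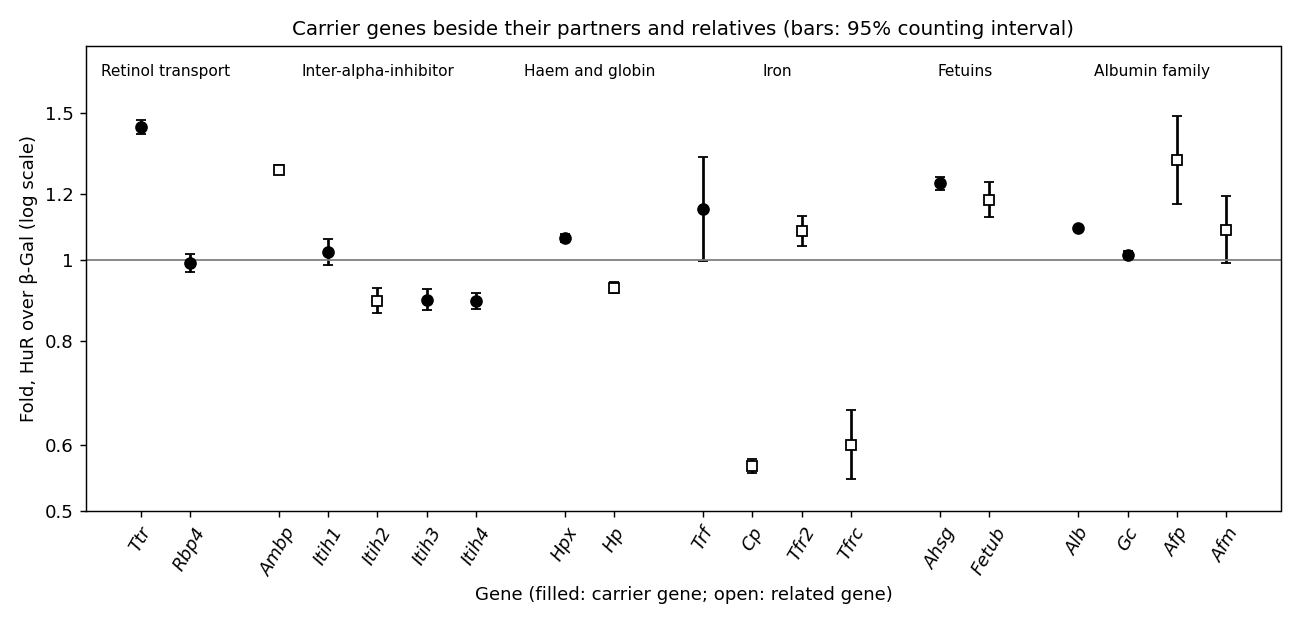
Fold, HuR over β-Gal library (log scale), of carrier genes (filled) and related genes (open), grouped by what they carry or bind, with 95% counting intervals as bars. Ttr at 1.44 and Rbp4 at 0.991 are separated, as are Ambp at 1.28 and Itih2 at 0.893, while Cp and Tfrc lie lowest at 0.566 and 0.601.

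Ordered by fold, the carriers ran from Ttr through Ahsg, Trf, Alb, Hpx, Itih1, Gc, Rbp4 and Itih3 to Itih4. Neighbours whose counting intervals did not overlap were Ttr and Ahsg, Alb and Hpx, and Rbp4 and Itih3. The other 6 neighbouring pairs overlapped. The interval lay above 1 for 5 genes (Alb, Ttr, Hpx, Ahsg and Gc), below 1 for 2 (Itih3 and Itih4) and across 1 for 3 (Trf, Rbp4 and Itih1). The median log2 fold change of the 10 was 0.058, beside -0.17 over all 12905 compared genes and 0.15 over the 1055 abundant genes. Thus all 10 carriers lay above the first median, and 3 (Ttr, Ahsg and Trf) lay above the second. Trf, at 18.5 and 21.3 FPKM, is not one of the abundant genes, and without it 2 lay above the second.

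Direction depended on the scale for the genes near 1. Ttr, Ahsg, Trf, Alb and Hpx had a log2 value above 0 under each of the 6 alternatives tried. Gc and Itih1 turned to values below 0, -0.053 and -0.043, when both libraries were set to the same FPKM sum. Rbp4, Itih3 and Itih4 turned to values above 0, 0.15, 0.0090 and 0.0046, when the median of all compared genes was set to 0. The median of the 10 turned as well, to -0.015 with equal FPKM sums.

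By their usual behaviour in inflammation, the carriers fall into 3 groups. Alb, Ttr, Trf, Rbp4 and Ahsg are negative acute phase reactants, made less in inflammation, and 4 of these 5 lay above 0 with a median of 0.19. That median is the value of Trf, from 366 and 405 reads, whose counting interval included 1. The interval lay above 1 for 3 of the 5. Hpx, Itih3 and Itih4 are made more in inflammation in mouse liver or hepatocytes, and 1 of these 3 lay above 0, with a median of -0.16. Gc and Itih1 lay at 0.020 and 0.030. These counts stand beside a median of 0.15 over the 1055 abundant genes. Of those genes, 33.3% had a lower log2 fold change than Rbp4, at -0.013. With the median of all compared genes set to 0, all 10 carriers lay above 0, Itih3 and Itih4 only just (0.0090 and 0.0046). Of 8 other secreted proteins that bind haem or iron or are relatives of the carriers or reactants of inflammation (Hp, Cp, Lcn2, Fetub, Hrg, Orm1, Orm2 and Apom), 5 lay above 0 and 3 below, with a median of 0.32. None was past 2-fold in either direction, against 13.7% of all compared genes and 2.27% of abundant ones. Ceruloplasmin (Cp), a copper-carrying ferroxidase, differed most, with a fold of 0.566, and Hp and Hrg stood at 0.926 and 0.877 times their control values. Lcn2, an iron-siderophore binding protein, stood at 261 and 382 FPKM, Orm1, an acid glycoprotein, at 597 and 849 FPKM, and Apom, an apolipoprotein of the lipocalin family, at 114 and 167 FPKM.

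The order of levels depended on the transcript length used. The FPKM values matched reads divided by the mean length of a gene's annotated transcripts, which for Alb is 899 bases because 2 short transcripts of 331 bases are averaged with the main one of 2034 bases. Rescaled to the longest transcript, Alb stood at 11206 and 12217 FPKM, still the highest of the 10. These values are below those deposited for Apoe (13095 and 19841 FPKM), which was not rescaled here. The first place of Alb among all genes was therefore read on deposited FPKM only. Ttr has 1 annotated transcript of 1186 bases and kept its value, so its place among the 10 went from 6 to 5 with β-Gal and from 5 to 4 with HuR. With β-Gal, Ahsg and Ttr were then close, at 822 and 817 FPKM, and with HuR Ttr stood above Ahsg, at 1177 and 1014 FPKM. On both scales the order of the heavy chains was Itih4, Itih3, Itih1, and Trf was last. Folds between libraries do not depend on this length.

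Transcripts of the carriers have short 3′ untranslated regions, the part of an mRNA where HuR often binds. The longest coding transcript of the 10 genes had 69 (Hpx) to 649 (Itih4) bases after the stop codon, with a median of 246, beside 1055 over 11091 compared genes. The pentamer ATTTA, the core of AU-rich elements, was found in 1 of the 10, Rbp4, once. It was found in 67.3% of compared genes, and in 37.1% of the 3635 whose region was 69 to 649 bases long. TTTTT was found in 2, at 10 overlapping positions in Ttr and 2 in Gc, against 75.6% of compared genes and 48.8% of those in the same range of length. Ttr had the highest fold of the 10 and Gc one of 1.01. These are counts of letters on the transcript strand in GENCODE M21 transcripts, not binding sites.

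Genes next to the carriers on the chromosome included 2 past the threshold. Of 17 other genes that overlap a carrier or lie within 20 kb of one, 15 were listed and 12 passed the minimum, of which 2 were at least 2-fold lower (8.31% of compared genes) and 0 at least 2-fold higher. Both lie beside a carrier within 1.1-fold of its control value. Apbb1, an adaptor that binds the amyloid precursor protein, lies beside Hpx and stood at 5.68 and 1.94 FPKM (2.93-fold lower, 2.11 to 4.19). Nek4, a protein kinase gene beside Itih1, stood at 7.02 and 2.55 FPKM (2.76-fold lower, 2.25 to 3.40). Trim3 on the other side of Hpx stood at 41.1 and 58.3 FPKM. The remaining neighbours were Afp, Fetub, Srprb (15.1 and 17.1 FPKM), Dnajb11 (50.7 and 50.1 FPKM), Tmem110 (17.6 and 17.0 FPKM), Ffar4, B4galt6, the pseudogene Gm10269 and Mustn1, each at under 2-fold on the log2(FPKM + 1) scale. Gm16090, Rab6b and Pde6c were under 1 FPKM. The antisense gene Gm30505, which shares 62 exonic bases with Ahsg, is not analysed here.

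Transcription factors that act on carrier promoters had log2 fold changes from -1.34 to 0.99. Of 13 compared factors, 0 were at least 2-fold higher (5.35% of compared genes) and 1 at least 2-fold lower (8.31%), with 9 below 0 and a median of -0.32. With 13 genes, 1 lower call is near that background. It was Hlf, a PAR bZIP factor, at 4.05 and 0.998 FPKM (4.06-fold lower, 2.82 to 5.98). The C/EBP factors of inflammation stood higher just under the threshold with the pseudocount, Cebpb at 88.2 and 177 FPKM and Cebpd at 8.31 and 17.2 FPKM. Nr5a2, the orphan nuclear receptor also called LRH-1, stood at 11.8 and 5.71 FPKM (2.07-fold lower, 1.76 to 2.43), short of the threshold on the pseudocount scale.

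**Figure D4:**
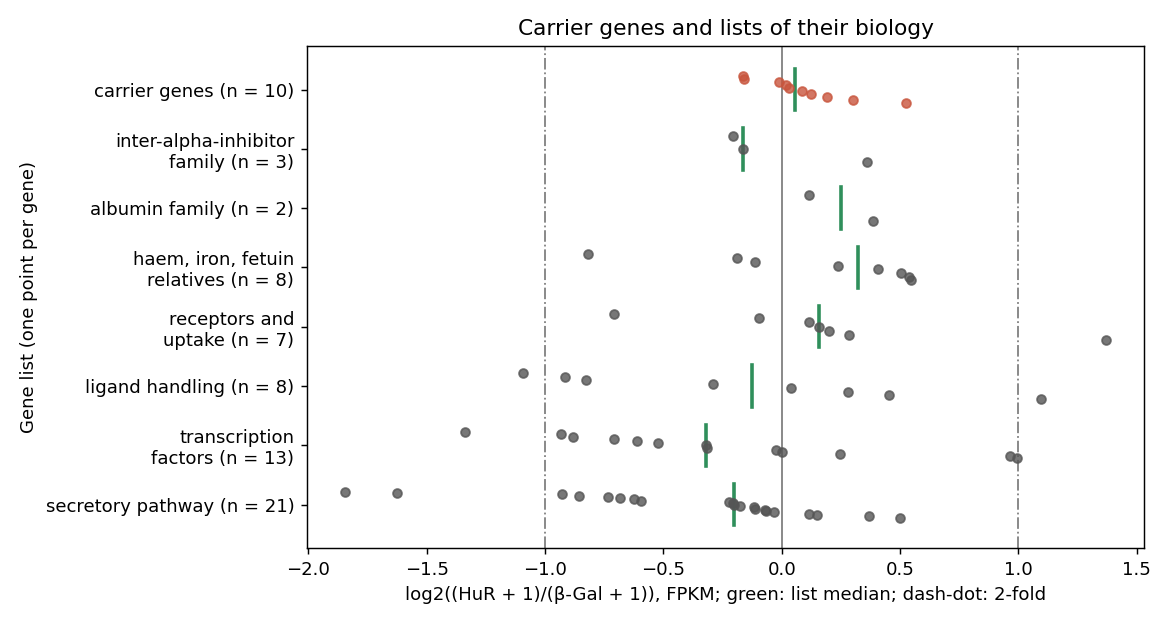
Log2 fold change, HuR over β-Gal with 1 FPKM added, of each carrier gene (top row) and of each compared gene in 7 related lists, with list medians in green and 2-fold marked by dash-dot lines. The carriers lie between -0.16 and 0.53, while the transcription factors and the secretory pathway reach down to -1.34 and -1.84.

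Genes of the secretory pathway, by which the carriers leave the cell, included 2 of 21 that were at least 2-fold lower (8.31% of compared genes) and 0 higher, with a median of -0.20. The share at least 2-fold lower was near that of all compared genes. Of the 21, 17 lay below 0 and 4 above, beside a median of -0.17 over all compared genes. Some of the 21 belong to the abundant genes, whose median was 0.15 and of which 2.27% differed by 2-fold. Both genes at least 2-fold lower act in the export of cargo from the endoplasmic reticulum. Sec23a, a subunit of the COPII vesicle coat, stood at 34.5 and 8.88 FPKM (3.88-fold lower, 3.39 to 4.46). Mia2, which helps load large cargo at exit sites, stood at 132 and 42.0 FPKM (3.14-fold lower, 2.96 to 3.32). The outer coat subunit Sec31a stood at 121 and 63.1 FPKM (1.92-fold lower, 1.82 to 2.03), and Ssr3, a subunit of the translocon-associated complex, at 123 and 67.6 FPKM (1.82-fold lower, 1.73 to 1.92). Pdia3, a disulfide isomerase, lay at the other end with 381 and 539 FPKM (1.41-fold, 1.37 to 1.45).

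Receptors of the carriers and genes that handle their ligands included 3 past 2-fold, beside 5.35% of compared genes higher and 8.31% lower. Of 7 compared receptors and uptake partners, 1 was at least 2-fold higher and 0 lower. It was Amn, known as a partner of the endocytic receptor cubilin in kidney and gut, at only 0.582 and 3.09 FPKM (5.31-fold, 2.74 to 11.2). The asialoglycoprotein receptor genes Asgr1 and Asgr2, which clear desialylated plasma proteins, had folds of 1.22 (1.16 to 1.29) and 1.15 (1.05 to 1.26). Lrp2, Cubn and Cd163 were under 1 FPKM in both libraries, and Stra6 and Rbpr2 are not analysed here. Of 8 compared genes that handle the carried ligands, 1 was past 2-fold higher, Hmox1, and 1 lower, Cyp2r1, the vitamin D 25-hydroxylase, at 6.23 and 2.39 FPKM (2.61-fold lower, 1.87 to 3.67). Its product in plasma is carried by the Gc protein, whose transcript had a fold of 1.01. Dio1, the deiodinase that acts on thyroid hormone carried by transthyretin, stood at 21.9 and 11.9 FPKM (1.84-fold lower, 1.504 to 2.25).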

How the data were processed

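The authors deposited 1 FPKM value per gene and library, in 1 table for each of the 2 libraries. The submitters' processing notes name TopHat2, HTSeq 0.6.1 and the build GRCm38, with no roles. How FPKM was calculated, the annotation and the strand setting are not stated there. The tables hold 20505 genes, with 0 genes at 0 in β-Gal and 2233 at 0 in HuR, so genes seen only with HuR are not analysed here. Identifiers of 20133 genes matched GENCODE M21.

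FPKM steps were matched to whole reads over the rounded mean transcript length, within 0.02 of a read in both libraries for 73.3% of matched genes and for 3 carriers (Trf, Gc and Itih1). Reads of the other carriers are estimates, used for intervals and shares only. Log2 fold changes are log2((HuR + 1)/(β-Gal + 1)), which understates the change of low genes, and folds in the text carry no pseudocount. Genes were compared from 1 FPKM in either library upward, with 2-fold on the log2 scale as the threshold. Interval coverage and recovery of totals were tested on simulated data. Python 3.11.15, pandas 2.3.3 and scipy 1.17.1 were used.

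Genes and lists were chosen with earlier results of these data known. All carriers were named, together with up to 4 members of each list by size of difference, every list member past 2-fold, all genes within 20 kb of a carrier and the 3 genes nearest to Alb. A few genes that this rule or the lists would name are not reported here and were left out of the list counts. Alternatives were a pseudocount of 0.1 or 5, centring, equal FPKM sums, removal of the GC and length trend, and a threshold of 1.5-fold.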

Additional observations from a re-analysis of the deposited data

How the results depend on the processing

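The count of carriers past 2-fold was 0 under every alternative, including no filter on low values and, chosen after seeing the data, leaving out Trf. Past 1.5-fold it was 0, and 1 (Ttr) with the median of all compared genes set to 0 or the GC and length trend also removed, settings applied to this count after seeing the data. The median log2 fold change (0.058) was 0.22 with the median of all compared genes set to 0 and 0.19 with the GC and length trend also removed. It turned to -0.015 with equal FPKM sums and to -0.0059 when Elavl1 and mitochondrial genes were left out of those sums. Both follow from the scaling, which lowers all folds alike. With pseudocounts of 0.1 and 5 the median stayed at 0.058, and with Trf left out it was 0.030. The summed share of the carriers (4.84% and 5.00%) was 3.45% and 3.74% of recovered reads, and 4.97% and 5.17% of FPKM without Elavl1 and mitochondrial genes. Among single carriers, Itih4 turned to 0.11 with the trend removed. No paired analysis was possible because each group has 1 library, and none could be left out. The intervals cover counting error only, and variation between cultures is unknown.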
